A study of Mus musculus with 35 samples.

Results

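The effect of IAMP knockdown with 1 siRNA was examined in cardiac fibroblasts exposed to TGF-β, by RNA-seq of 6 of the 35 libraries in the series. The study isolated fibroblasts from hearts of 8-week-old mice, kept the cells that adhered to collagen-coated plates, transfected them, and sequenced mRNA enriched from their total RNA with oligo(dT) beads. The 6 libraries were chosen by their labels alone: 3 were from cells given Scrambled control siRNA (si-NC) plus TGF-β, and 3 from cells given the second of 2 siRNAs against the IAMP transcript (si-IAMP-2, here siR-2) plus TGF-β. All genes were examined. Another 3 libraries with the first siRNA (si-IAMP-1, here siR-1) plus TGF-β, and 6 without TGF-β (3 Scrambled, 3 siR-2), were used only where named. The labels give no strain, sex, or TGF-β dose or duration for these cells, and do not say whether the 3 replicates of a group were separate isolations, so the p-values measure the spread between these libraries, which may be technical. All were cultured cells kept in medium with serum, and no group lacks siRNA, which limits them as a model of fibroblasts in the heart.

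IAMP is a micropeptide encoded by the mouse transcript 4930523C07Rik, which the study reports in cardiac fibroblasts. TGF-β is the cytokine best known for turning fibroblasts into myofibroblasts: its receptors phosphorylate SMAD proteins, which raise collagens, matrix cross-linking enzymes and the contractile apparatus, including smooth muscle α-actin. Fibroblasts also divide in culture, secrete chemokines that draw leukocytes, and use the transcription factor NRF2 to raise glutathione synthesis and other antioxidant defences. Lists of genes for these functions are described below by how many of their members passed the test and by their median.

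The libraries were of nearly equal depth. The summed estimated counts were 105873215, 105068333 and 106947519 in the Scrambled libraries and 106213300, 104139670 and 108379622 in the siR-2 libraries. Values are given as CPM (each count divided by the library's total and multiplied by a constant, with TMM factors) for replicates 1, 2 and 3 in that order. On the first principal component of the 9 TGF-β libraries, which held 44.2% of the variance, the Scrambled libraries lay between -19.7 and -17.9, the siR-2 libraries between 16.3 and 17.9, and the siR-1 libraries between 1.30 and 2.21. Each group was therefore separated from the others on this axis.

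The cells carried fibroblast markers. The 12 fibroblast markers, of which Col1a1 was the most abundant at 7216 CPM, summed to 20827, 20735 and 21449 CPM in the Scrambled libraries and 24566, 23558 and 24221 CPM in the siR-2 libraries. Of these, 6 were higher and 2 lower by adjusted p alone, and Thy1, a surface glycoprotein, passed both thresholds, at 103.4, 103.98 and 103.5 CPM with Scrambled and 68.8, 68.2 and 68.3 CPM with siR-2 (log2 -0.60 ± 0.04, edgeR adjusted p = 1.13e-09). Of 13 cardiomyocyte markers, 7 were at or under the limit of 18 estimated counts (about 3 read pairs in a long gene, counting error only) in all 6 libraries, Mb was at 0, and Tnnt2, the most abundant at 3.93 CPM, was the 1 of 6 tested that was lower; the list summed to 6.58, 5.81 and 6.50 CPM with Scrambled and 3.95, 4.47 and 3.87 CPM with siR-2. Endothelial markers, led by Cdh5 at 37.3 CPM, summed to 157, 155 and 157 CPM with Scrambled and 159, 153 and 153 CPM with siR-2, and none of the 12 passed both thresholds with edgeR (1 was higher and 2 lower by adjusted p alone). Macrophage and leukocyte markers summed to 179, 170 and 171 CPM with Scrambled and 156, 153 and 160 CPM with siR-2, with Lyz2 the most abundant at 107 CPM, Cd3e at 0, and C1qa and C1qb lower among the 13 tested, with adjusted p of 0.046 and 0.0426 that exceeded 0.05 in 6 and 5 of the 6 fits without 1 library. Of 8 Schwann and neural markers, led by S100b at 5.75 CPM, 1 was higher (12.5%, against 2.07% of all genes) and none was lower. The shares lower were 8.33% of fibroblast, 16.7% of cardiomyocyte and 15.4% of macrophage and leukocyte markers tested, against 5.44% of all genes. All 8 erythroid markers were at or under the limit of 18 counts. RNA of endothelial and leukocyte markers was thus detected in both groups. In bulk libraries, fewer cells of a type and less RNA per cell cannot be told apart.

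The siRNA lowered its target. The IAMP gene 4930523C07Rik (ENSMUSG00000090394, GRCm38 chr1:160044382-160080208, plus strand, protein coding in GENCODE vM21) was at 19.4, 19.8 and 22.98 CPM in the Scrambled libraries and at 2.92, 3.23 and 3.78 CPM in the siR-2 libraries. The groups were well apart, and the log2 fold change was -2.65 ± 0.11 (SE, n = 3 and 3, edgeR adjusted p = 1.13e-11). The siR-1 libraries, at 4.66, 4.07 and 4.49 CPM, lay above all siR-2 libraries, and siR-2 was lower than siR-1 by a log2 difference of -0.41 ± 0.11 (adjusted p = 0.0087), which is under the fold threshold. An uncharacterised gene, 4930562F07Rik, overlaps the IAMP gene on the other strand. The sources do not say whether strand was used in counting, and without it such pairs cannot be told apart, here also for Tagln, Plk1, Cdc20, Prc1, Fosl1, Thbs1, Erfe and Rfc4.

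More genes fell than rose. A gene is said below to have risen or fallen where its adjusted p did not exceed 0.05 and it changed by 1.5-fold or more (the fold threshold). Among the 19891 tested, 412 rose (2.07%) and 1082 fell (5.44%), together 7.51%. Falls made up 72.4% of the 1494. With the adjusted p alone, 15.1% were higher and 14.8% lower, so the excess of falls lay among the larger changes: 432 genes fell and 155 rose by a log2 change of at least 1. All 3 siR-2 libraries were above all 3 Scrambled libraries for 20.9% of genes and below them for 19.9%, and 1476 of the 1494 were among these. The median log2 fold change over all genes was 0.01, with 5% of genes under -0.99 and 5% over 0.78.

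**Figure D1:**
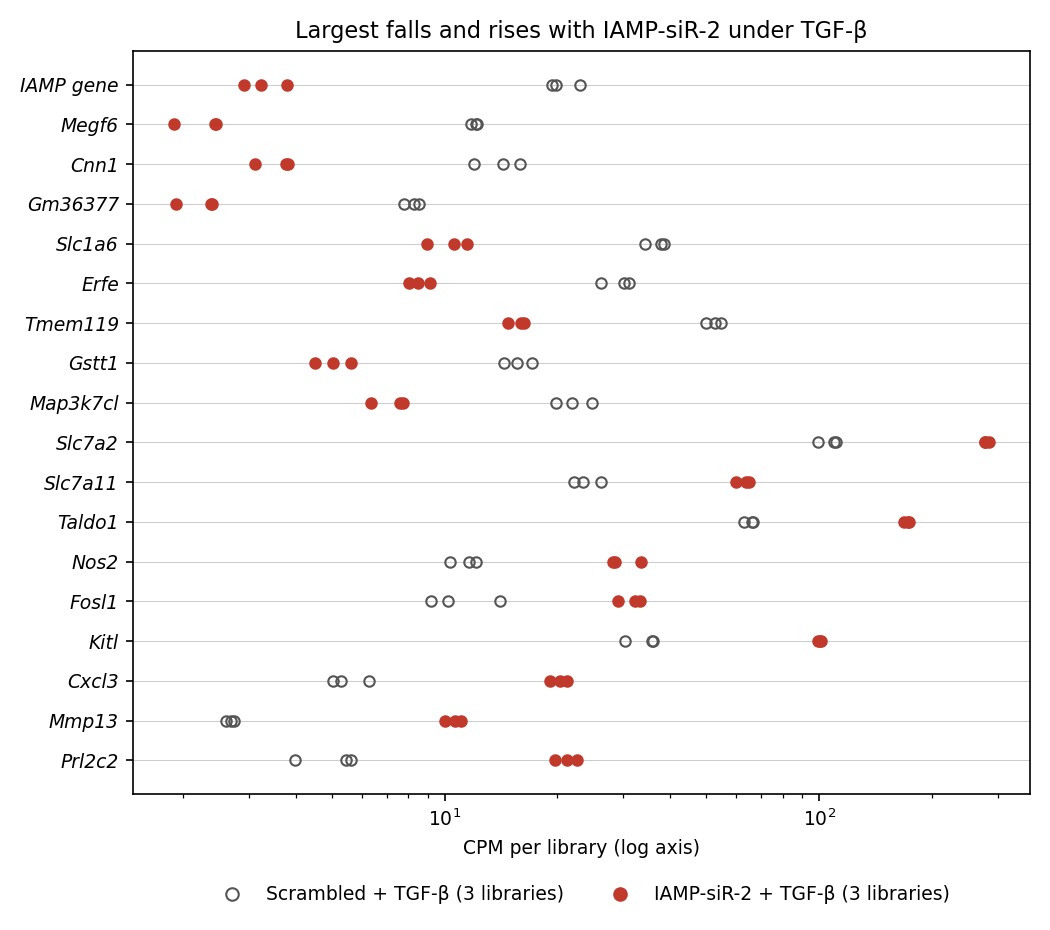
CPM in each library (x axis, log scale) for 9 of the 10 largest falls and 9 of the 10 largest rises among genes that passed the test with a mean of at least 5 CPM and groups that did not overlap; open grey points are Scrambled and filled red points siR-2 libraries, 3 each. In every row the 3 points of one group lie to one side of the other group, with the IAMP gene 4930523C07Rik going from 19.4 to 22.98 CPM down to 2.92 to 3.78 CPM.

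Of the genes averaging 5 CPM or more, Megf6 fell most after the IAMP gene. Megf6, a secreted or surface protein with repeated EGF-like domains, was at 12.2, 11.7 and 12.1 CPM with Scrambled and at 2.45, 2.44 and 1.90 CPM with siR-2, a log2 fold change of -2.41 ± 0.13 (SE, adjusted p = 5.67e-10). The glutamate transporter Slc1a6 was at 34.2, 38.5 and 37.9 CPM against 11.5, 10.6 and 8.97 CPM (log2 -1.83), and Erfe, which encodes the iron-regulating hormone erythroferrone, was at 26.1, 30.1 and 31.0 CPM against 8.03, 8.47 and 9.13 CPM (log2 -1.77). Tmem119 went from 52.7, 49.9 and 54.5 CPM to 16.3, 16.0 and 14.8 CPM (log2 -1.74 ± 0.06). Gm36377, Gstt1 and Map3k7cl fell by between 1.62 and 1.88 on the log2 scale. All 3 siR-2 libraries lay below all 3 Scrambled libraries in each of these genes.

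Prl2c2 and Kitl, both genes of secreted factors, were among the large rises. Prl2c2, a proliferin, was at 5.63, 5.45 and 3.99 CPM with Scrambled and at 19.8, 22.5 and 21.2 CPM with siR-2 (log2 2.07 ± 0.12, adjusted p = 3.04e-08); it has near-identical copies that the counting could split, so its level is uncertain. Kitl, the ligand of the KIT receptor, rose from 30.4, 35.9 and 36.1 CPM to 101, 100 and 99.3 CPM (log2 1.56 ± 0.06). The 3 siR-2 values of Kitl were close together and above all control values. Nos2, the inducible nitric oxide synthase, was at 10.3, 11.6 and 12.2 CPM against 33.4, 28.6 and 28.2 CPM (log2 1.40), Taldo1, transaldolase of the pentose phosphate pathway, at 66.3, 66.5 and 63.0 CPM against 174, 173 and 168 CPM (log2 1.39 ± 0.04), and Slc7a2, which imports arginine, at 99.0, 111 and 110 CPM against 277, 278 and 284 CPM (log2 1.39 ± 0.04).

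Ranked by the change in CPM, the abundant genes that rose most were the chemokines Ccl7, Cxcl5 and Ccl2, the protease gene Mmp3, the autophagy receptor gene Sqstm1 and Thbs1, which encodes thrombospondin 1, an activator of latent TGF-β. Thbs1 was at 2046, 2390 and 2279 CPM with Scrambled and at 3681, 3490 and 3509 CPM with siR-2 (log2 0.67 ± 0.05). Sqstm1 went from 945, 916 and 915 CPM to 1584, 1644 and 1570 CPM (log2 0.79 ± 0.03). Those that fell most were Acta2, Tagln, Fndc1, Gas6, Loxl2 and Cemip. Fndc1, a fibronectin domain protein, was at 487, 503 and 559 CPM against 225, 230 and 241 CPM (log2 -1.16 ± 0.05), and Gas6, the ligand of the AXL receptor family, at 1090, 1052 and 1147 CPM against 693, 673 and 679 CPM (log2 -0.69 ± 0.04). Cemip, which depolymerises hyaluronan, was at 1015, 1056 and 1100 CPM against 682, 708 and 694 CPM (log2 -0.61 ± 0.04, and -0.58, under the fold threshold, without Scrambled replicate 3).

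**Figure D2:**
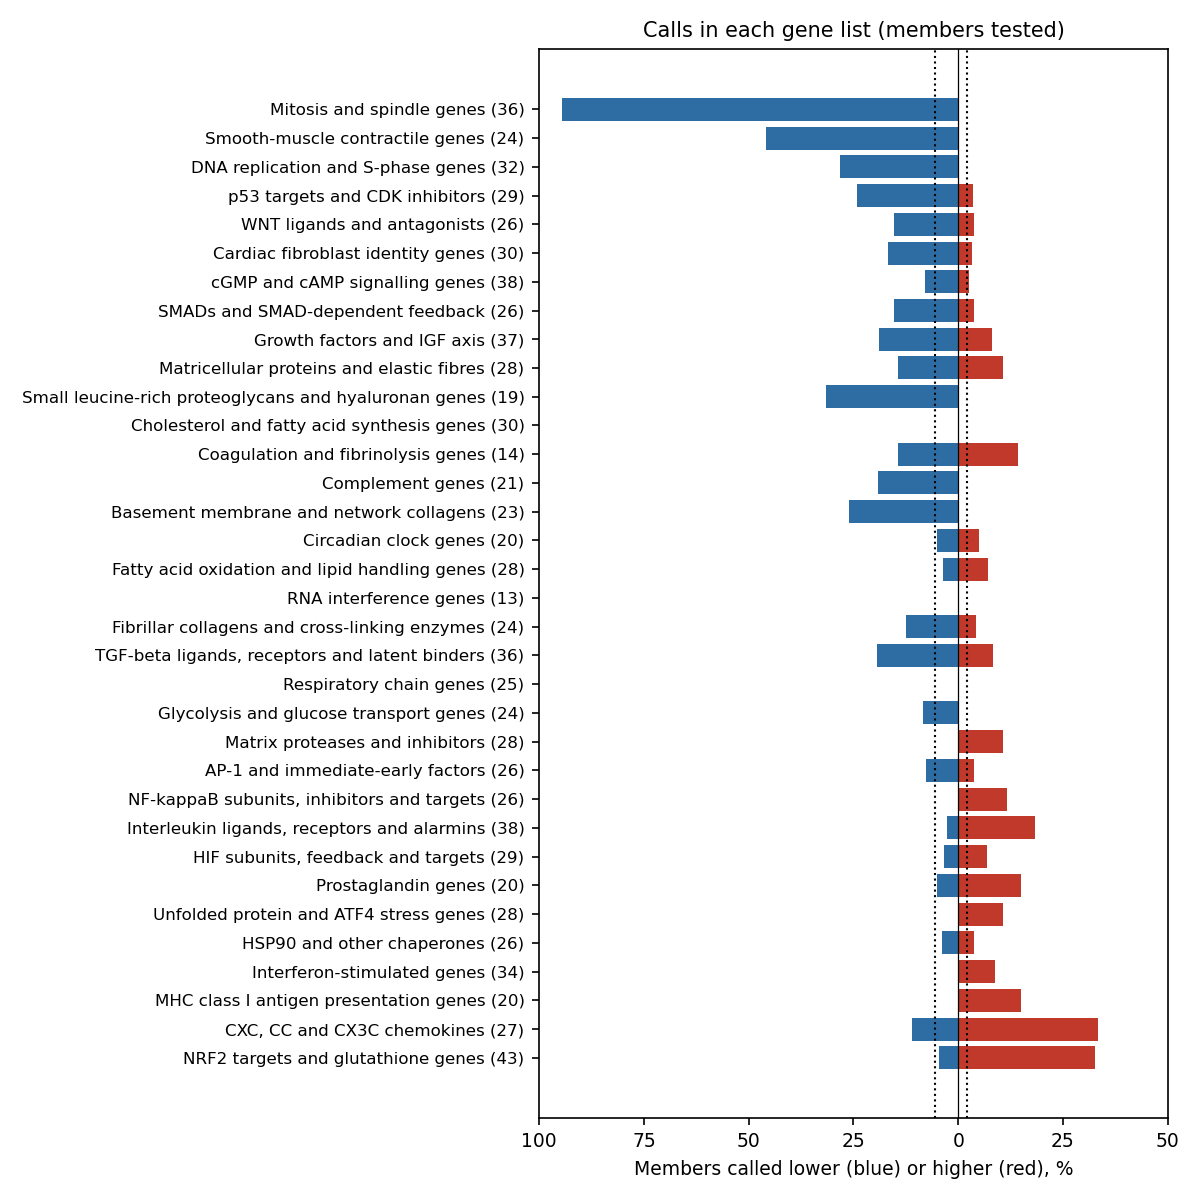
Share of the tested members of each gene list that fell (blue, left) or rose (red, right) with siR-2, in percent (x axis), with the number tested in brackets and lists ordered by their median log2 fold change. Dotted lines mark the shares over all genes, 5.44% lower and 2.07% higher; mitosis genes reach 94.4% lower, and chemokines and NRF2 targets 33.3% and 32.6% higher.

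Genes of mitosis fell almost as a block. Of 36 mitosis and spindle genes, 34 fell (94.4%, against 5.44% of all genes) and none rose, and the median log2 fold change was -1.09. Plk1, the kinase that drives entry into and progress through mitosis, was at 39.9, 39.2 and 40.4 CPM with Scrambled and at 15.2, 12.7 and 15.2 CPM with siR-2 (log2 -1.47 ± 0.07, adjusted p = 9.69e-11). Cdc20, an activator of the anaphase-promoting complex, went from 24.1, 22.98 and 21.9 CPM to 7.87, 7.93 and 9.96 CPM (log2 -1.42 ± 0.10), and Prc1, which bundles the microtubules of the central spindle, from 36.3, 37.5 and 43.4 CPM to 14.2, 14.4 and 16.3 CPM (log2 -1.38 ± 0.08). The siR-2 values were under those of every control library in these genes. Mki67, the proliferation marker Ki-67, was at 22.1, 25.9 and 28.7 CPM against 11.2, 12.8 and 13.7 CPM (log2 -1.02 ± 0.09), and Cdk1, the mitotic cyclin-dependent kinase, at 39.7, 38.6 and 38.4 CPM against 19.4, 19.5 and 18.8 CPM (log2 -1.02 ± 0.06). The members that did not pass were Gtse1 (log2 -0.47) and Wee1 (log2 -0.39), which inhibits CDK1, and both had an adjusted p under the threshold in the direction of the others. Against siR-1, 7 of the 36 were lower with siR-2, where 3.12% of all genes were.

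Many mitotic genes carry a short element near the start of transcription, the cell cycle genes homology region (CHR, letters TTTGAA), which the DREAM and MuvB-containing complexes bind. RefSeq windows (GRCm38.p6) from 250 bases before to 50 after the first listed start of a gene were matched by symbol to 13055 tested genes and to 29 of the 36 mitosis genes. TTTGAA on either strand was found in 20 of the 29 (69%) against 12.8% of all windows, and within 50 bases of the start in 18 of the 29 (62.1%) against 3.11%, a distance chosen after the matches were seen. CCAAT on either strand was found in 22 of the 29 (75.9%) against 38.3%. A match is a description of the letters, not a binding site or a cause of the change. Over the risen and fallen genes, the shares were 14.3% and 19.1% for TTTGAA and 37.3% and 43.1% for CCAAT. The windows of Cdc20, Prc1 and Plk1 were picked after their values were seen, because they hold the letters beside the start. Capitals mark TTTGAA, which begins 18 bases before the start in Cdc20, 5 bases before it in Prc1 and 30 bases after it in Plk1. The window of Aurka was also looked at and is not shown.
Cdc20 (chr4:118437294-118437593, minus strand): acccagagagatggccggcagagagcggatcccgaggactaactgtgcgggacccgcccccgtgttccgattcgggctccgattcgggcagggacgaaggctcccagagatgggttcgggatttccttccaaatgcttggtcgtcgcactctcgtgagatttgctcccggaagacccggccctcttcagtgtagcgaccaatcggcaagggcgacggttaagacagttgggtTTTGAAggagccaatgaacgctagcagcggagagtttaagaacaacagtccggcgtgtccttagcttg
Prc1 (chr7:80294201-80294500, plus strand): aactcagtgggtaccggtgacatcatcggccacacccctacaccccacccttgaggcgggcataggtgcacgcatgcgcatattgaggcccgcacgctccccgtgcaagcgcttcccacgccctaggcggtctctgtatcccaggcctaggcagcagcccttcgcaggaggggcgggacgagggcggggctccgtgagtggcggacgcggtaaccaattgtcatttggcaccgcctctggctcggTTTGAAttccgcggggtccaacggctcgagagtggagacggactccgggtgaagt
Plk1 (chr7:122159185-122159484, plus strand): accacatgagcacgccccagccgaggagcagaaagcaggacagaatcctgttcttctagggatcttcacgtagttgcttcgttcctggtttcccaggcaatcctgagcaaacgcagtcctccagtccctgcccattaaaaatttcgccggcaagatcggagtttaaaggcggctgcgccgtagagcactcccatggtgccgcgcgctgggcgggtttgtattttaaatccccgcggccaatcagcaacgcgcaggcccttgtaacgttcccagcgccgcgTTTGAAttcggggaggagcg

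Of 32 replication and S-phase genes, 9 fell (28.1%, against 5.44% of all genes) and none rose, with a median of -0.43, and by adjusted p alone 21 were lower and none higher. Mcm5, a subunit of the replicative helicase, was at 21.8, 23.2 and 24.9 CPM with Scrambled and at 12.2, 13.4 and 12.05 CPM with siR-2 (log2 -0.89 ± 0.07). Rrm2, a subunit of ribonucleotide reductase, was at 38.3, 36.2 and 36.8 CPM against 21.2, 21.3 and 22.9 CPM (log2 -0.77 ± 0.06), and Pole and Rfc4 also fell. In contrast, the polymerase clamp gene Pcna was at 51.5, 55.8 and 53.7 CPM against 54.5, 51.1 and 55.1 CPM, and the groups overlapped (log2 -0.00 ± 0.05, adjusted p = 0.98). The CHR letters were in 4 of 26 replication gene windows (15.4%), near the share of all windows, and CCAAT was in 17 of 26 (65.4%).

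Among 29 p53 targets and cell cycle inhibitors, 7 fell (24.1%, against 5.44% of all genes) and 1 rose (3.45%, against 2.07%), and by adjusted p alone 22 were lower and 3 higher. Ccnd1, the cyclin that couples growth signals to the cell cycle, was at 130, 138 and 133 CPM with Scrambled and at 65.0, 67.8 and 62.2 CPM with siR-2 (log2 -1.04 ± 0.04), a fall of similar size to that with siR-1 (log2 change -1.02). The inhibitor gene Cdkn1a (p21), a main p53 target, was at 553, 531 and 549 CPM against 482, 497 and 500 CPM and did not pass the fold threshold (log2 -0.14 ± 0.03), nor did Mdm2 (log2 0.11 ± 0.03). Other p53 targets in the list did, with Sesn1 (log2 -0.65), Pmaip1 (log2 -0.61) and Eda2r (log2 -0.60) lower. The 1 member that rose was Gadd45a (log2 0.65). Gadd45g, a stress-induced growth regulator, fell from 181, 185 and 181 CPM to 94.2, 89.4 and 86.8 CPM (log2 -1.02 ± 0.04). The inhibitor gene Cdkn1c fell as well (log2 -1.12), so that list members with opposite effects on the cycle were among those lower with siR-2.

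**Figure D3:**
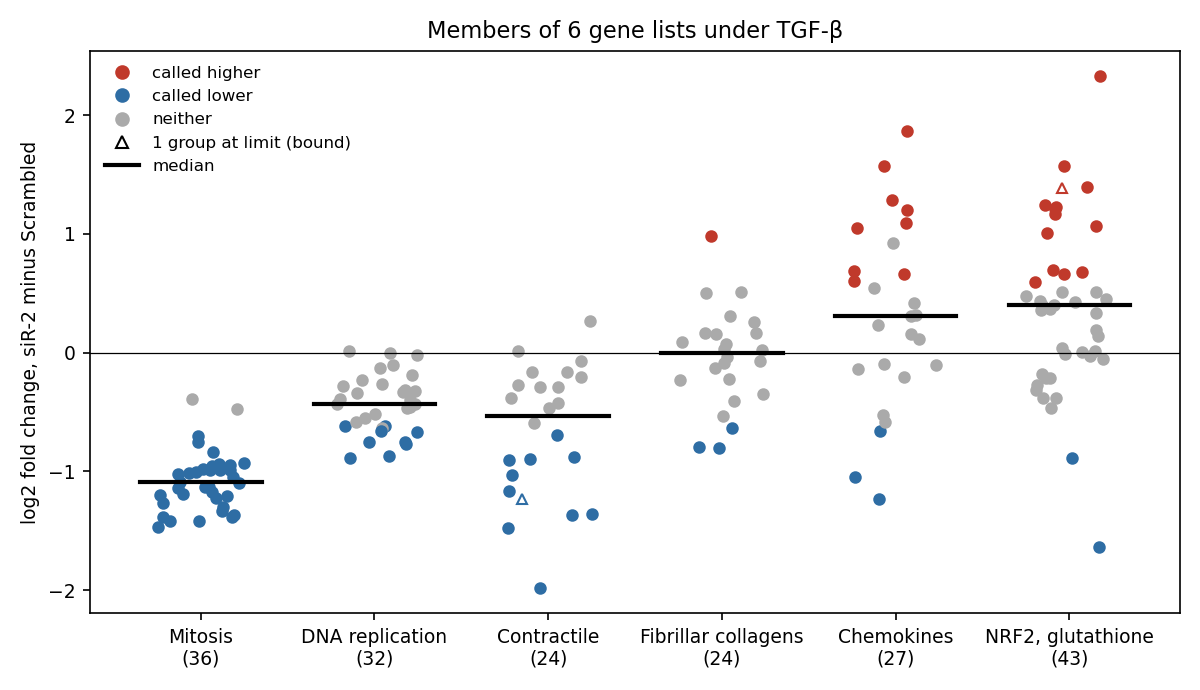
log2 fold change of siR-2 minus Scrambled under TGF-β (y axis) for each tested member of 6 gene lists, with the number tested in brackets; red points rose, blue points fell, grey points did neither, open triangles are members with all libraries of 1 group at or under 18 counts, drawn at their bound, and black bars are medians of the fitted values. Cxcl13, at or under 18 counts in both groups, is not drawn. Mitosis genes lie together around a median of -1.09, contractile genes other than Myocd spread from 0.26 down to -1.98, fibrillar collagen genes centre on 0, and chemokines and NRF2 targets spread upward with medians of 0.30 and 0.40.

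Smooth muscle contractile genes, which mark the myofibroblast state, also fell often. Of 24 members, 11 fell (45.8%, against 5.44% of all genes) and none rose, with a median of -0.53. Acta2, smooth muscle α-actin, was at 3214, 3065 and 3072 CPM with Scrambled and at 1466, 1547 and 1565 CPM with siR-2 (log2 -1.03 ± 0.04, adjusted p = 2.82e-12). Tagln, the actin-binding protein transgelin, went from 1135, 1087 and 1115 CPM to 571, 618 and 621 CPM (log2 -0.88 ± 0.04), and Myl9, a regulatory light chain of myosin, from 295, 271 and 284 CPM to 109, 111 and 109 CPM (log2 -1.37 ± 0.04). The groups did not overlap in any of these genes. Cnn1, the actin-binding calponin, was at 14.4, 11.96 and 15.9 CPM against 3.81, 3.78 and 3.11 CPM (log2 -1.98 ± 0.11), and Lmod1, an actin nucleator, at 14.1, 12.9 and 14.2 CPM against 5.18, 5.30 and 5.61 CPM (log2 -1.36 ± 0.08). Myh11, smooth muscle myosin heavy chain, was at 3.54, 4.42 and 4.63 CPM against 2.23, 2.54 and 2.00 CPM (log2 -0.90 ± 0.14). Myocd, the coactivator myocardin, was at 0.305, 0.502 and 0.415 CPM with Scrambled and at or under 18 counts in each siR-2 library, at least 2.35-fold lower with the limit of 18 counts per library; its adjusted p of 0.017 became 0.072 and 0.052 without Scrambled replicate 2 or 3.

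Some pericyte and epicardial markers fell too. The 10 pericyte and smooth muscle markers summed to 103, 103 and 106 CPM with Scrambled and to 80.3, 76.7 and 76.1 CPM with siR-2. Cspg4 was the most abundant at 32.7 CPM and did not fall (log2 0.25), whereas Mcam (log2 -1.11), Notch3 (log2 -0.996) and Myh11 fell, 3 of the 9 tested (33.3%, against 5.44% of all genes). The 10 epicardial and mesothelial markers summed to 45.6, 45.0 and 52.6 CPM against 34.4, 30.7 and 27.3 CPM, with Upk3b the most abundant at 14.5 CPM and Dmkn at 0. Of the 9 tested, Upk3b, Lrrn4 and Krt19 fell (33.3%) and none rose, but the adjusted p of Krt19, 0.036, lay between 0.0582 and 0.0931 in all 6 fits without 1 library. The part of these cell types in the fall of the contractile genes was not tested.

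A CArG box, the element that serum response factor binds with myocardin, was found by name on either strand in 5 of 20 contractile gene windows (25%) against 1.33% of all windows. The shares in risen and fallen genes were 1.19% and 2.05%. The window of Acta2, looked at first, held no match. That of Myl9 is shown because it holds one, in capitals, that begins 161 bases before the start.
Myl9 (chr2:156775214-156775513, plus strand): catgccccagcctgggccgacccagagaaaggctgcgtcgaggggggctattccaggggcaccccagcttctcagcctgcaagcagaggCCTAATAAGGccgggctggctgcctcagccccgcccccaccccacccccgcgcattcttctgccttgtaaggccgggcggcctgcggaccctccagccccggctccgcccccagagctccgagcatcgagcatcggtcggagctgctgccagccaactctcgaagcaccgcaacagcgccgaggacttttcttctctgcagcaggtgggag

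Of 24 collagen and cross-linking genes, 1 rose (4.17%, against 2.07% of all genes) and 3 fell (12.5%, against 5.44%), with a median of -0.00, and by adjusted p alone 8 were higher and 9 lower. Their levels summed to 29694, 29688 and 30827 CPM with Scrambled and to 33749, 32430 and 33472 CPM with siR-2. Col1a1, the main chain of type I collagen, was at 6899, 6862 and 7217 CPM with Scrambled and at 7705, 7167 and 7447 CPM with siR-2; the groups overlapped and the log2 fold change was 0.09 ± 0.04 (adjusted p = 0.066). Col1a2 (log2 0.26), Col3a1 (log2 0.50) and the cross-linking enzyme gene Lox (log2 0.31) had positive values under the fold threshold. Col5a3, a minor fibril chain, rose from 30.0, 28.7 and 30.2 CPM to 59.99, 54.6 and 61.0 CPM (log2 0.98 ± 0.05). By contrast, Col11a1, a chain that helps start fibrils, was at 313, 328 and 335 CPM against 179, 183 and 195 CPM (log2 -0.81 ± 0.04), and P4ha3 and Loxl2, which modify collagen, also fell (log2 -0.79 and -0.64).

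Of 23 basement membrane and network collagen genes, 6 fell (26.1%, against 5.44% of all genes) and none rose. Col8a2, of a short network collagen, was at 16.2, 16.2 and 15.5 CPM with Scrambled and at 6.49, 5.32 and 6.58 CPM with siR-2 (log2 -1.38 ± 0.09), and Col4a3, Col6a3 and Lama5, a laminin chain, fell by 1.08, 1.04 and 0.92 on the log2 scale. The more abundant Col4a1 did not pass the fold threshold (log2 0.13). Of 19 tested genes of small leucine-rich proteoglycans and hyaluronan, 6 fell (31.6%) and none rose. Fmod, fibromodulin, was at 145, 146 and 156 CPM against 75.8, 80.2 and 75.4 CPM (log2 -0.95 ± 0.04), and Acan, aggrecan, at 3.05, 3.65 and 3.02 CPM against 0.722, 1.12 and 0.557 CPM (log2 -2.02 ± 0.26). Dcn, decorin, went the other way without passing the fold threshold (log2 0.30 ± 0.03).

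Of 28 matricellular genes, 3 rose (10.7%, against 2.07% of all genes) and 4 fell (14.3%, against 5.44%). Ccn2, connective tissue growth factor and a classical TGF-β target, was at 3662, 3741 and 3534 CPM with Scrambled and at 3758, 3724 and 3763 CPM with siR-2, with overlapping groups (log2 0.04 ± 0.03, adjusted p = 0.42). Postn, periostin, was at 1132, 1120 and 1107 CPM against 1021, 1077 and 1085 CPM; all siR-2 values were lower, but the difference did not pass the test (log2 -0.08 ± 0.04, adjusted p = 0.12). The interval of 2 SE around each of these values lies well inside the fold threshold. Tnxb, Ccn3 and Thbs1 rose, and Megf6, Comp, Eln (elastin) and Thbs2 fell. Fn1, fibronectin, was at 6765, 7215 and 7532 CPM against 6165, 6187 and 6071 CPM (log2 -0.22 ± 0.04).

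Of 28 matrix proteases and inhibitors, 3 rose (10.7%, against 2.07% of all genes), none fell and 25 did neither, with a median log2 fold change of 0.07. By adjusted p alone, 12 were higher and 5 lower. The risen genes were Mmp13, Mmp3 and Plaur. Mmp13, a collagenase, was at 2.69, 2.60 and 2.75 CPM with Scrambled and at 11.1, 10.7 and 10.0 CPM with siR-2 (log2 1.98 ± 0.10, adjusted p = 9.54e-11). Mmp3, stromelysin, was at 1501, 1490 and 1514 CPM against 3058, 3041 and 3080 CPM (log2 1.03 ± 0.03). Plaur, the urokinase receptor, was at 38.5, 35.8 and 37.4 CPM against 62.0, 62.9 and 61.9 CPM (log2 0.74 ± 0.05). The inhibitor gene Timp1 (log2 0.56 ± 0.03) was just under the fold threshold with an adjusted p of 9.01e-10.

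Of 36 genes of TGF-β family ligands, receptors and latent binders, 3 rose (8.33%, against 2.07% of all genes) and 7 fell (19.4%, against 5.44%), with a median of 0.03. The ligand genes Tgfb2 and Tgfb3 fell (log2 -0.91 and -0.89), as did Bmp4, from 60.9, 65.9 and 68.0 CPM to 33.1, 31.0 and 30.5 CPM (log2 -1.04 ± 0.05), Inhbb, an activin subunit (log2 -0.95), and the latent binders Ltbp2 and Ltbp4 (log2 -0.64 and -0.61, the latter -0.57 without siR-2 replicate 1). Tgfb1 was at 164, 150 and 148 CPM against 220, 206 and 213 CPM, a rise under the fold threshold (log2 0.47 ± 0.04). The receptor genes Tgfbr1 and Tgfbr2 had values of 0.32 and -0.13, and the co-receptor gene Tgfbr3 rose (log2 0.66).

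Of 26 genes of SMAD signalling and its feedback, 1 rose (3.85%, against 2.07% of all genes) and 4 fell (15.4%, against 5.44%), with a median of -0.16. By adjusted p alone 4 were higher and 14 lower, where 15.1% and 14.8% of all genes were. Smad7, the inhibitory SMAD, was at 58.4, 57.3 and 59.7 CPM with Scrambled and at 58.3, 53.8 and 55.7 CPM with siR-2 (log2 -0.06 ± 0.04, adjusted p = 0.33), and Skil and Pmepa1 had log2 values of 0.13 and -0.18. Id1, a target of BMP signalling, fell from 12.6, 14.6 and 16.5 CPM to 7.90, 7.20 and 7.84 CPM (log2 -0.93 ± 0.10), as did Id4 (log2 -1.38) and Smad6, an inhibitory SMAD (log2 -0.68). Tgfbi, a secreted adhesion protein named for its induction by TGF-β, fell (log2 -0.75), and Smurf2, a ubiquitin ligase that acts on SMADs and receptors, rose from 154, 165 and 164 CPM to 262, 260 and 263 CPM (log2 0.70 ± 0.03).

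Several chemokine genes rose. Of 27 tested, 9 rose (33.3%, against 2.07% of all genes) and 3 fell (11.1%, against 5.44%), with a median of 0.30. Ccl7, which attracts monocytes, was at 597, 598 and 612 CPM with Scrambled and at 1467, 1519 and 1417 CPM with siR-2 (log2 1.28 ± 0.04, adjusted p = 2.60e-13). Cxcl5, a neutrophil attractant, was at 1483, 1473 and 1383 CPM against 2933, 3095 and 2933 CPM (log2 1.05 ± 0.04), and Cxcl3, of the same family, at 5.28, 6.30 and 5.03 CPM against 19.1, 21.3 and 20.3 CPM (log2 1.87 ± 0.09). Other risen attractants of neutrophils and monocytes were Cxcl1 (log2 0.69), Cxcl2 (log2 1.09) and Ccl8 (log2 0.66), and Ccl11 and Cxcl9 rose too. Ccl2, the main monocyte chemokine, was at 1645, 1620 and 1563 CPM against 2493, 2503 and 2323 CPM (log2 0.60 ± 0.04), just past the fold threshold, and it was under it at 0.58 without Scrambled replicate 3, siR-2 replicate 1 or siR-2 replicate 2. With siR-1, Ccl2 had a log2 change of 0.05 against Scrambled (edgeR adjusted p = 0.43), whereas Ccl7 and Cxcl5 had 1.04 and 0.85. Ccl17 was at 22.8, 23.2 and 20.8 CPM against 9.86, 9.10 and 9.48 CPM (log2 -1.23 ± 0.07), and Cx3cl1 and Ccl9 fell as well (log2 -1.05 and -0.66). Cxcl12, the homeostatic stromal chemokine, was at 163, 166 and 165 CPM against 113, 111 and 119 CPM (log2 -0.53 ± 0.04), under the fold threshold.

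Of 38 interleukin, receptor and alarmin genes, 7 rose (18.4%, against 2.07% of all genes), 1 fell and 30 did neither, with a median of 0.13. Il6, the acute-phase cytokine, was at 82.7, 87.5 and 80.0 CPM with Scrambled and at 159, 167 and 151 CPM with siR-2 (log2 0.93 ± 0.04). Ptx3, a soluble pattern recognition protein, was at 115, 126 and 119 CPM against 347, 280 and 279 CPM (log2 1.33 ± 0.10), and Il13ra2, a decoy receptor for IL-13, at 12.1, 10.9 and 12.1 CPM against 28.8, 25.8 and 26.9 CPM (log2 1.22 ± 0.06). The groups were apart in these genes. S100a8, an alarmin, was low, at 0.324, 0.362 and 0.322 CPM against 1.28, 2.05 and 1.08 CPM (log2 2.12 ± 0.30). Il11, a cytokine of the fibrotic response, was at 5.23, 4.14 and 4.43 CPM against 5.10, 4.41 and 4.78 CPM and did not differ beyond its spread (log2 0.05 ± 0.13).

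Of 26 NF-κB subunits, inhibitors and targets, 3 rose (11.5%, against 2.07% of all genes) and none fell. They were Ptgs2, Sod2 and Vcam1. By adjusted p alone 11 of the 26 were higher and 1 lower, where 15.1% and 14.8% of all genes were. Vcam1, a leukocyte adhesion molecule, was at 728, 785 and 743 CPM with Scrambled and at 1232, 1198 and 1092 CPM with siR-2 (log2 0.64 ± 0.04). The inhibitor gene Nfkbia, an early feedback target, was at 68.9, 74.4 and 71.5 CPM against 72.2, 73.7 and 68.9 CPM, with overlapping groups (log2 0.00 ± 0.05). Of 20 prostaglandin genes, 3 rose (15%) and 1 fell (5%, against 5.44% of all genes). Ptgs2, cyclooxygenase-2, was at 59.2, 63.7 and 60.04 CPM against 129, 123.01 and 132 CPM (log2 1.07 ± 0.05), and the phospholipase genes Pla2g4a and Pla2g2e rose (log2 0.73 and 0.71). Of 21 complement genes tested, 4 fell (19.05%) and none rose, but those were C1qa, C1qb, C1qc and C3ar1, whose expression is mainly of macrophages and which were all under 5 CPM on average. The adjusted p of C1qa, 0.046, lay between 0.0622 and 0.124 in all 6 fits without 1 library, that of C1qb, 0.0426, between 0.0516 and 0.162 without any library but siR-2 replicate 2, and that of C1qc, 0.0164, at 0.0604, 0.104 and 0.0587 without Scrambled replicate 1, Scrambled replicate 3 or siR-2 replicate 3. C3, the central component, was at 1055, 1042 and 1206 CPM against 888, 877 and 924 CPM (log2 -0.30 ± 0.05).

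Among 26 AP-1 and immediate-early factor genes, 1 rose (3.85%) and 2 fell (7.69%), close to the shares over all genes, 2.07% and 5.44%. With the adjusted p alone 9 were higher and 4 lower, where 15.1% and 14.8% of all genes were. Fosl1, a late-acting FOS family subunit of AP-1, was at 14.1, 9.20 and 10.2 CPM with Scrambled and at 33.3, 29.0 and 32.2 CPM with siR-2 (log2 1.497 ± 0.14, adjusted p = 2.76e-05). Fos was at 2.41, 2.92 and 3.24 CPM against 2.13, 2.54 and 2.07 CPM with no difference beyond the spread (log2 -0.35, adjusted p = 0.11), and Klf2 (log2 -0.95) and Dusp1 (log2 -0.60) fell, the latter under the fold threshold at -0.56 without Scrambled replicate 1 and at -0.51 without siR-2 replicate 2. The AP-1 letters TGANTCA, which read the same on both strands, were in 41 of 252 windows of risen genes (16.3%), in 46 of 782 windows of fallen genes (5.88%) and in 5.82% of all windows. This motif was chosen with the rises known. Mmp13 and Mmp3 are shown because both rose and hold a match, in capitals, that begins 35 and 46 bases before the start.
Mmp13 (chr9:7272264-7272563, plus strand): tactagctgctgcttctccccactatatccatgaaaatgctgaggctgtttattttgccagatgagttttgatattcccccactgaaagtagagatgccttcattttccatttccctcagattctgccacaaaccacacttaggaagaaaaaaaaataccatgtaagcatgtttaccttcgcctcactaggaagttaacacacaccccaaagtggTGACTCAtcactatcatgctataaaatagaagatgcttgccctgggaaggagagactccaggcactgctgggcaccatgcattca
Mmp3 (chr9:7445572-7445871, plus strand): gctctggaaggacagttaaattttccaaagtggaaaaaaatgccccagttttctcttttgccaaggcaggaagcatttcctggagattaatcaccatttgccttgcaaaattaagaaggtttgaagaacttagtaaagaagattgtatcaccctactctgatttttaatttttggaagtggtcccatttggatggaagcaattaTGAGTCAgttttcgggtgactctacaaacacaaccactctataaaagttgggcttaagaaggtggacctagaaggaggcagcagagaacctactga

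Antioxidant genes formed the other list with many rises. Of 43 NRF2 targets and glutathione genes, 14 rose (32.6%, against 2.07% of all genes) and 2 fell (4.65%, close to the 5.44% of all genes), with a median of 0.40. Hmox1, heme oxygenase-1, was at 290, 281 and 286 CPM with Scrambled and at 641, 688 and 702 CPM with siR-2 (log2 1.24 ± 0.04, adjusted p = 2.60e-13). Slc7a11, the cystine importer, was at 22.2, 26.1 and 23.4 CPM against 60.01, 63.6 and 64.9 CPM (log2 1.39 ± 0.07), and Nqo1, a quinone reductase, at 47.4, 48.1 and 40.2 CPM against 76.3, 70.8 and 73.2 CPM (log2 0.70 ± 0.06). In each of them the groups were apart. Every step of glutathione synthesis held a risen gene: Gclc (log2 1.06) and Gclm (log2 1.00), the 2 subunits of glutamate-cysteine ligase, and Gss (log2 0.66), with Srxn1 (log2 1.17) and Txnrd1 (log2 0.59, and 0.58 or 0.57 without Scrambled replicate 2 or siR-2 replicate 3) of the peroxiredoxin and thioredoxin systems. The transferase gene Gsta4 was at 4.66, 4.63 and 4.17 CPM against 9.38, 10.3 and 11.5 CPM (log2 1.21 ± 0.10), while Gsta1 and Gsta2 also rose but are near-identical copies. The fallen genes were also of transferases. Gstt1 was at 15.6, 14.4 and 17.1 CPM against 4.52, 5.61 and 5.04 CPM (log2 -1.64 ± 0.09), and Gstm6 fell (log2 -0.88). Gpx3, the secreted glutathione peroxidase, had a log2 value of -0.47, under the threshold. The antioxidant response letters TGACNNNGC, on either strand, were in 6 of 36 windows of this list (16.7%) and in 14.5% of all windows; the letters can overlap those of AP-1, which were also in 6 of the 36. The shares in risen and fallen genes were 17.5% and 14.6%, and the window of Slc7a11, looked at first, held no antioxidant response match.

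Of 34 interferon-stimulated genes, 3 rose (8.82%, against 2.07% of all genes), none fell and 31 did neither, with log2 values from -0.23 to 1.69 and a median of 0.27. Rsad2, the antiviral protein viperin, was at 72.7, 103.8 and 94.5 CPM with Scrambled and at 209, 165 and 143 CPM with siR-2 (log2 0.93 ± 0.20, adjusted p = 0.016). Ifit1 was at 416, 501 and 453 CPM against 728, 663 and 585 CPM and stayed under the fold threshold (log2 0.53 ± 0.11), and Isg15 was at 320, 366 and 347 CPM against 478, 417 and 367 CPM (log2 0.29 ± 0.11, adjusted p = 0.10). Replicate 1 had the highest value of the siR-2 group in these genes. Cmpk2 rose with an adjusted p of 0.048, and leaving out single libraries other than siR-2 replicate 3 gave an adjusted p between 0.069 and 0.14, with a log2 fold change of 0.51 without siR-2 replicate 1. With the replicate number as a block, the adjusted p of Rsad2 was 0.061. Of 20 MHC class I genes, 3 rose (15%) and none fell: Nlrc5, the transactivator of the class (log2 0.76, adjusted p = 0.038, and between 0.058 and 0.11 when single libraries other than siR-2 replicate 3 were left out), and H2-Q6 and H2-Q7, near-identical paralogs (log2 0.68 and 0.86, the former 0.57 without siR-2 replicate 1). H2-K1 and B2m had values of 0.34 and 0.18. Without the fold threshold, 13 of the 20 were higher and none lower by adjusted p, where 15.1% and 14.8% of all genes were.

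Of 28 unfolded protein and ATF4 genes, 3 rose (10.7%, against 2.07% of all genes) and none fell, and 19 were higher and 2 lower by adjusted p alone. The risen genes were Slc7a11, Dnajb9 (log2 0.64) and Hspa5, the endoplasmic reticulum chaperone BiP, which was at 624, 627 and 619 CPM with Scrambled and at 987, 961 and 944 CPM with siR-2 (log2 0.63 ± 0.03). Ddit3 and Atf4 had log2 values of 0.15 and 0.10. Of 26 chaperone genes, 1 rose and 1 fell (3.85% each, against 2.07% and 5.44% of all genes). With the adjusted p alone 18 of them were higher and 3 lower, where 15.1% and 14.8% of all genes were. Hspa5 rose and Hspa1b, which has a near-identical copy, fell (log2 -0.66, and -0.57 without siR-2 replicate 2), while Hsp90ab1 was at 1589, 1558 and 1663 CPM against 1888, 1906 and 1839 CPM (log2 0.23 ± 0.03) and Hsp90aa1 had a log2 value of 0.23. Of 29 HIF genes, Nos2 and Hmox1, which other pathways also induce, rose (6.90%) and Stc2 fell (log2 -0.60). In this list 14 were higher and 4 lower by adjusted p alone. Hif1a itself was at 358, 408 and 372 CPM against 439, 466 and 491 CPM (log2 0.30 ± 0.05), and the HIF targets Vegfa and Bnip3 had values of 0.13 and 0.22.

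Of 24 glycolysis genes, 2 fell (8.33%, close to the 5.44% of all genes), among them Eno2 (log2 -0.66). At an adjusted p alone, 9 were higher and 7 lower, where 15.1% and 14.8% of all genes were. Ldha was at 432, 406 and 422 CPM with Scrambled and 427, 413 and 431 CPM with siR-2 (log2 0.01 ± 0.03). In the lipid oxidation and handling list, 2 of 28 rose (7.14%, against 2.07% of all genes), Angptl4, an inhibitor of lipoprotein lipase, from 53.3, 52.1 and 58.4 CPM to 138, 123.5 and 133 CPM (log2 1.27 ± 0.05), and Lpl, that lipase itself, from 146, 151 and 153 CPM to 272, 255 and 255 CPM (log2 0.80 ± 0.03). Pdk4, which restrains pyruvate oxidation, fell (log2 -1.001). None of 30 cholesterol and fatty acid synthesis genes, 25 respiratory chain genes and 13 RNA interference genes passed both thresholds with edgeR; by adjusted p alone, 4 were higher and 15 lower, 3 higher and none lower, and 2 higher and 2 lower, respectively.

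Of 30 regulators and markers of fibroblast identity, 5 fell (16.7%, against 5.44% of all genes) and 1 rose (3.33%, against 2.07%). The cardiac transcription factor gene Tbx20 was at 273, 298 and 299 CPM with Scrambled and at 178, 179 and 179 CPM with siR-2 (log2 -0.70 ± 0.04), and Osr1 (log2 -0.99), Scx (log2 -0.98), a factor of tendon and matrix-producing cells, Cd248 (log2 -0.78) and Thy1 (log2 -0.60) also fell. Meox2 rose from 10.4, 9.30 and 9.10 CPM to 21.2, 19.4 and 20.5 CPM (log2 1.09 ± 0.08). Tcf21, a defining factor of cardiac fibroblasts, had a log2 value of -0.41 ± 0.04 and Gata4 of -0.07 ± 0.04.

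Of 37 growth factor and IGF genes, 7 fell (18.9%, against 5.44% of all genes) and 3 rose (8.11%, against 2.07%). Igf1 was at 66.7, 68.8 and 65.5 CPM with Scrambled and at 34.9, 32.3 and 35.6 CPM with siR-2 (log2 -0.97 ± 0.06), and the imprinted RNA gene H19 (log2 -1.17), Fgf9 (log2 -0.98) and Fgf18 (log2 -0.89) fell, while Hgf rose by 0.60 and was under the fold threshold, at 0.49 to 0.58, without Scrambled replicate 1 or 3 or siR-2 replicate 3. Of 26 WNT ligands and antagonists tested, 4 fell (15.4%) and 1 rose (3.85%). Dkk3, a secreted protein of the Dickkopf family, was at 198, 198 and 206 CPM against 95.4, 99.3 and 99.6 CPM (log2 -1.03 ± 0.04), and Rspo3, which amplifies WNT signals, at 3.84, 3.65 and 3.44 CPM against 9.30, 8.54 and 9.57 CPM (log2 1.33 ± 0.10). Of 38 cyclic nucleotide genes, 3 fell (7.89%), among them Npr3, the natriuretic peptide clearance receptor (log2 -0.74), and Prkar2b, a regulatory subunit of protein kinase A, rose from 24.8, 20.7 and 21.5 CPM to 43.8, 48.2 and 48.2 CPM (log2 1.07 ± 0.07). Of 14 coagulation genes tested, 2 rose and 2 fell (14.3% each). Procr (log2 0.98) and F2r, a thrombin receptor (log2 0.73), rose, and Thbd, thrombomodulin (log2 -0.88), and Gas6 fell. Of 20 clock genes, 1 rose and 1 fell (5% each), near the shares over all genes. Hlf rose (log2 0.65, and 0.55 without Scrambled replicate 2) and Npas2 fell (log2 -0.97).

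The siRNAs were then compared directly, with no control library in the contrast. The libraries of siR-2 exceeded those of siR-1 past both thresholds for 167 genes (0.84%) and fell below them for 620 (3.12%). Of the 1082 genes that fell against Scrambled, 378 were also lower than with siR-1. Of the 412 that rose, 40 were also higher than with siR-1. The siR-2 libraries enter both contrasts, so these overlaps are not independent. Phc3, a Polycomb protein, was at 53.1, 58.8 and 52.9 CPM in the siR-1 libraries, at 11.5, 8.86 and 11.3 CPM in the siR-2 libraries and at 7.50, 8.53 and 9.35 CPM with Scrambled, so the siR-1 libraries stood above both other groups in this gene (log2 difference -2.38 ± 0.10). Likewise Steap4, a metalloreductase, was at 93.6, 92.8 and 89.3 CPM in the siR-1 libraries, 32.3, 38.0 and 36.6 CPM in the siR-2 libraries and 43.3, 41.7 and 42.1 CPM with Scrambled. Agtr1a, the angiotensin II receptor, was at 15.6, 16.3 and 14.4 CPM under siR-1 and 4.22, 4.32 and 4.52 CPM with siR-2, with Scrambled between them at 6.91, 7.51 and 6.67 CPM. The siRNAs moved this gene in opposite directions, with log2 fold changes of 1.14 for siR-1 and -0.69 for siR-2.

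**Figure D4:**
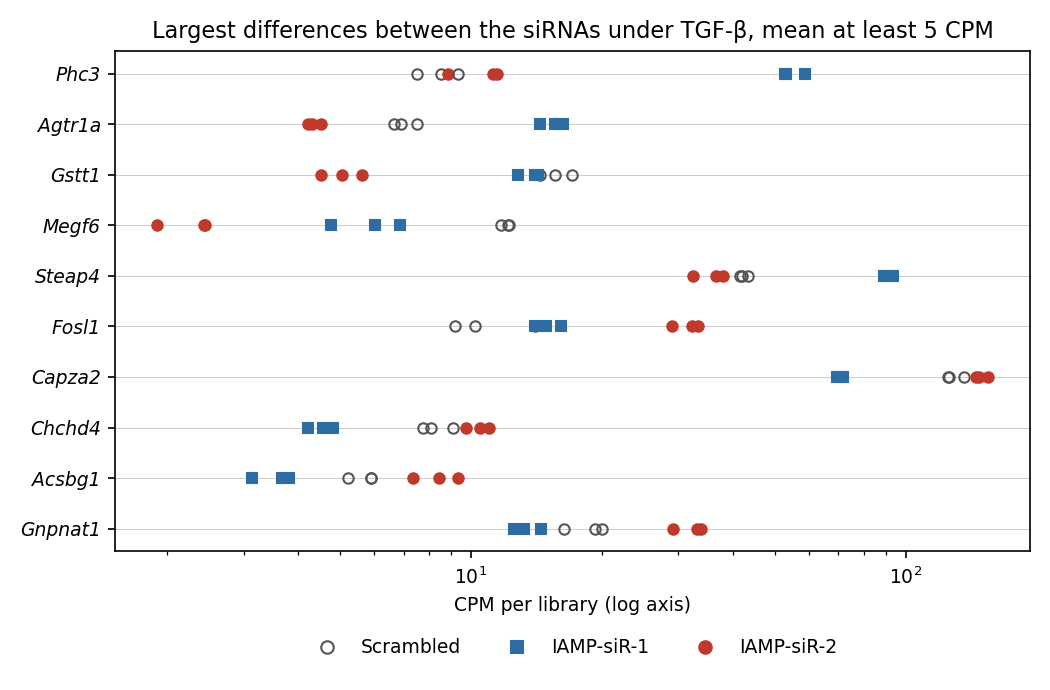
CPM per library (x axis, log scale) under TGF-β for the 5 largest differences each way between siR-2 and siR-1 among genes that passed the test with a mean of at least 5 CPM over the Scrambled and siR-2 libraries and groups that did not overlap; open grey circles are Scrambled, blue squares siR-1 and red circles siR-2, 3 libraries each. Phc3 and Steap4 are highest with siR-1, Gstt1 is lowest with siR-2, and Gnpnat1 is highest with siR-2.

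Several genes described above differed between the siRNAs. Gstt1 was at 14.004, 12.8 and 14.2 CPM in the siR-1 libraries, close to Scrambled (log2 change -0.20, adjusted p = 0.13), and siR-2 differed from siR-1 by -1.44 ± 0.09. Megf6 fell with both and was lower with siR-2 by -1.38 ± 0.13. Of the genes higher with siR-2, Gnpnat1, an enzyme of hexosamine synthesis, was at 12.6 to 14.5 CPM for siR-1 and at 29.1, 33.1 and 33.7 CPM with siR-2 (difference 1.25 ± 0.08), and Fosl1 was higher by 1.07 ± 0.14. Acsbg1, Chchd4 and Capza2 were higher than with siR-1 by 1.24, 1.20 and 1.08, but did not pass both thresholds against Scrambled. Of the abundant genes, Thbs1 (0.76) was higher, and Fndc1 (-0.98) and Cemip (-0.81) were lower, with siR-2 than with siR-1. Nos2 and Hmox1 rose more with siR-1 (log2 2.52 and 2.09) and were lower with siR-2 than with siR-1 by -1.12 and -0.85. Among contractile genes 6 of 24 were lower than with siR-1, where 3.12% of all genes were. They included Cnn1 (-0.94) and Lmod1 (-0.98), whereas Acta2 (-0.40) and Tagln (-0.30) differed by less than the threshold.

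The siR-2 effect was last compared between TGF-β-treated and untreated cells, each against its own Scrambled libraries. Of 21508 genes tested, the effect was more positive under TGF-β by at least 1 on the log2 scale for 619 (2.88%) and more negative for 476 (2.21%). The tables were made apart, so the stimulus and the experiment cannot be told apart. For the IAMP gene, the mean went from 23.7 to 1.85 CPM in untreated cells, a log2 fold change of -3.67 ± 0.12, so the knockdown was smaller under TGF-β by a difference of 1.03 ± 0.16 (adjusted p = 1.70e-05). Among contractile genes, 0 of 24 passed the test of the difference. At an adjusted p alone Acta2 did, with a difference of -0.28 ± 0.05, and so did Myh11 (-0.79). Over all 21508 genes, 3134 were more positive and 3351 more negative at that threshold. The other contractile members are not listed or counted here, so no direction of the list can be read from Acta2 and Myh11. Of 36 mitosis genes, 2 had a more positive effect under TGF-β, one of them Mki67 (1.01), and none a more negative one.

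**Figure D5:**
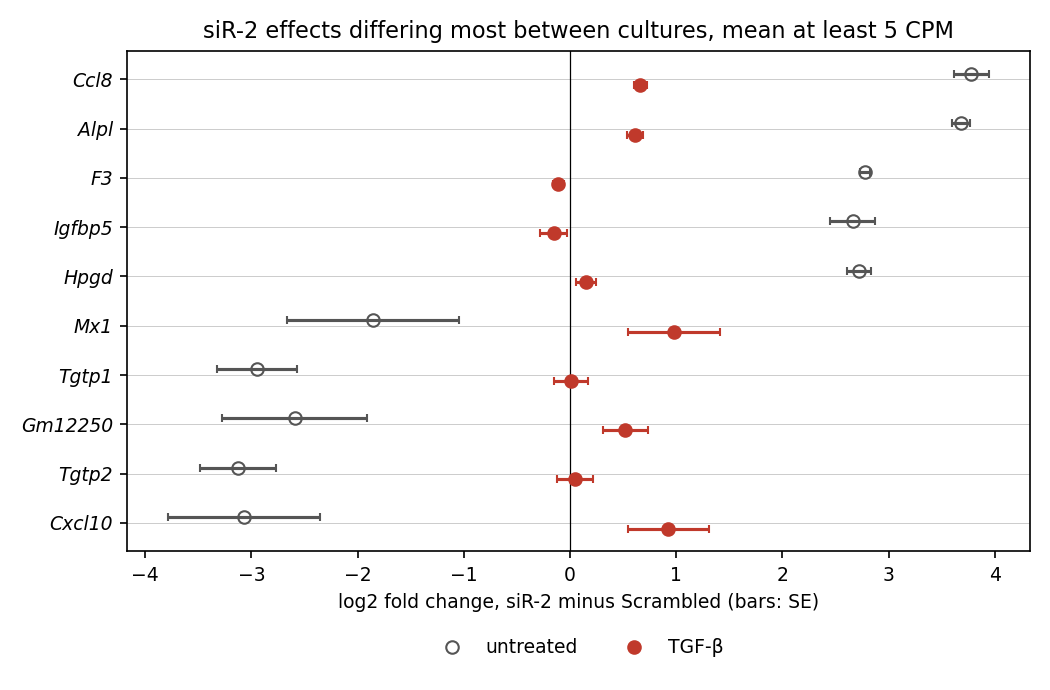
log2 fold change of siR-2 minus Scrambled (x axis, bars are SE) in untreated cells (open grey) and under TGF-β (red) for the 5 largest differences each way between the cultures among genes that passed the test with a mean of at least 5 CPM over the TGF-β Scrambled and siR-2 libraries, 3 libraries in each group. Ccl8, Alpl, F3, Igfbp5 and Hpgd rose by over 2 in untreated cells and lie between -0.15 and 0.66 under TGF-β, and the interferon-related genes below them lie left of 0 in untreated cells and at 0 or right of it under TGF-β.

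The genes with the most negative differences, among those with a mean of at least 5 CPM under TGF-β, had risen in untreated cells. F3, tissue factor, the initiator of coagulation, was at 61.6, 65.2 and 57.9 CPM with Scrambled and at 56.1, 58.3 and 56.8 CPM with siR-2 under TGF-β (log2 -0.11 ± 0.05), against means of 31.3 and 215 CPM in untreated cells (log2 2.78 ± 0.05). The chemokine gene Ccl8 rose in both, by 0.66 ± 0.06 under TGF-β and by 3.78 ± 0.16 in untreated cells. Alpl, alkaline phosphatase, was at 8.72, 8.80 and 8.90 CPM against 13.2, 12.97 and 14.2 CPM under TGF-β, a small rise (0.61 ± 0.07, and 0.57 without siR-2 replicate 3), against 3.68 ± 0.09 in untreated cells. Il6 had a difference of -1.86. In the other direction, genes of the interferon response such as Cxcl10 (3.99 ± 0.86) and Mx1 (2.84 ± 0.98) had positive differences, with untreated effects of -3.07 and -1.86. Under TGF-β their effects were 0.93 (adjusted p = 0.13) and 0.98, neither past the edgeR test, although Cxcl10 passed with DESeq2 (0.92, adjusted p = 0.044). The adjusted p of the Mx1 difference, 0.046, lay between 0.054 and 0.12 in 9 of its fits without 1 library. In all, 9 of the 34 interferon-stimulated genes had a more positive effect under TGF-β and none a more negative one. Over all genes, these shares were 2.88% and 2.21%.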

How the data were processed

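Total RNA of cultured mouse cardiac fibroblasts was extracted, and mRNA enriched with oligo(dT) beads was sequenced. Per the labels and the study's methods, the authors trimmed reads with cutadapt, aligned them to GRCm38 with HISAT2, and quantified genes with StringTie; the strand setting is not given in the sources used here. The deposited tables hold estimated counts per gene, as whole numbers. Among genes seen in only 1 TGF-β library, the commonest value was 6 for genes of at least 1000 exon bases and 1 for those of at most 150, so 1 read pair was taken as about 6 estimated counts in long genes (fewer in short ones). The limit for a gene not detected was 18 estimated counts, about 3 read pairs in a long gene (counting error only). Groups came from the labels. The column for siR-2 in untreated cells was matched through the names used in the TGF-β table. All columns of both tables were mapped (0 unused), and the IL-17 and heart tables were not used here.

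Genes passing the edgeR low-count filter were tested with edgeR 4.0.16 (R 4.3.3), TMM scaling and the quasi-likelihood test, with Benjamini-Hochberg adjustment over all genes. The 9 TGF-β libraries shared 1 fit (19891 of 55487 genes, common BCV 0.1405), and the 18 libraries of both tables another (21508 genes). Calls required an adjusted p no higher than 0.05 and a 1.5-fold change, or a log2 difference of 1 between cultures. The test was also run on simulated data, and the outcome is not given or used here. Each library held between 104139670 and 108379622 estimated counts under TGF-β, and pairs of replicates differed by more than counting noise. Alternatives were DESeq2 1.42.0, RLE scaling, other filters and fold thresholds, counts divided by 6, a replicate block and leaving out each library.

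Genes were named by a rule: those the study followed by other assays, the 10 largest rises and falls with a mean of at least 5 CPM and no overlap, the 6 largest changes in CPM each way, key members and the 4 largest called changes of each list, and the 5 largest called differences each way in the other contrasts with a mean of at least 5 CPM over the Scrambled and siR-2 libraries under TGF-β and, between siRNAs, no overlap. Some other list members were named after their values were seen. The members, lists, motifs and alternatives were chosen with earlier results of these data known. Some genes that the rule gives are not reported here, though counts of genes and of list members include them.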

Additional observations from a re-analysis of the deposited data

Results flagged for a closer look

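The first set of results stands out because the difference between the 2 siRNAs under TGF-β was itself past the test (edgeR, log2 siR-2 minus siR-1). The values were 1.25 for Gnpnat1, 1.24 for Acsbg1, 1.20 for Chchd4, 1.08 for Capza2 and 1.07 for Fosl1. In the other direction they were -2.38 for Phc3, -1.83 for Agtr1a, -1.44 for Gstt1, -1.38 for Megf6 and -1.37 for Steap4. Chchd4, Capza2 and Acsbg1 were lower with siR-1 than with Scrambled, by log2 changes of -0.87, -0.87 and -0.68.

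The second set stands out because the siR-2 effect differed between TGF-β-treated and untreated cells. The log2 differences were 3.99 for Cxcl10, 3.18 for Tgtp2, 3.11 for Gm12250, 2.95 for Tgtp1 and 2.84 for Mx1. They were -3.12 for Ccl8, -3.07 for Alpl, -2.89 for F3, -2.82 for Igfbp5 and -2.57 for Hpgd. Tgtp1 and Tgtp2 are near-identical copies, so their separate values are uncertain. Phc3 also had a difference of 2.69, with an untreated siR-2 effect of -2.38. The stimulus and the experiment cannot be told apart in these comparisons.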

How the results depend on the processing

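The 6 counts of genes past the thresholds stayed within 1.5 times under DESeq2 (420 higher and 1077 lower against Scrambled), RLE scaling, other count filters, division by 6 and fits of only the groups compared. With a log2 change of at least 1 they were 155 and 432 against Scrambled and 49 and 181 against siR-1, and with no minimum fold 2999 and 2948, and 2386 and 2393. The difference between cultures gave 1418 and 1078 genes at 1.5-fold and 3134 and 3351 with no minimum. Deviations of Scrambled and siR-2 libraries with the same replicate number had correlations of -0.126, -0.00558 and 0.0537. Such values cannot exclude a shared origin that affects only part of the genes, and the labels do not give one. With the replicate block the counts were 384 and 1048, 153 and 597, and 567 and 446. Without single libraries they ranged from 376 to 446 and 966 to 1079, 136 to 175 and 512 to 650, and 563 to 652 and 418 to 448. Of 3598 alternative values for 273 gene results, 3482 kept direction and side, 83 lost and 10 gained the call, and 23 changed sign, all near 0: Nfkbia was -0.003855 with DESeq2, -0.003846 with RLE and -0.01212 with only the groups compared, which also gave -0.001744 for Fabp4 and -0.004313 for Tgtp1. Without single libraries, Il11 ranged from -0.01856 to 0.1529, Nfkbia from -0.02555 to 0.03041, C4b from -0.02157 to 0.1312, Ldha from -0.009254 to 0.03469, Pcna from -0.03085 to 0.02893, Fabp4 from -0.04799 to 0.1133, mt-Co1 from -0.07127 to 0.01072, Tgtp2 from -0.1001 to 0.155 and Tgtp1 from -0.1215 to 0.1224. Of 557 alternative list medians, 66 moved by more than the SD over the siR-2 libraries and 9 changed sign, all without 1 library: fibrillar collagen genes (0.003648, 0.0188 and 0.02314), TGF-β ligands, receptors and latent binders (-0.006253 and -0.01515), RNA interference genes (0.002696) and the 1 erythroid marker tested, which is at the limit in both groups (0.05202, 0.506 and 0.429). With 3 libraries a group, genes near the limit of 18 estimated counts, such as Myocd, have no reliable fold; the cause of lost calls was not tested.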
